A study of Mus musculus with 6 samples.

Results

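Activins, inhibins, transforming growth factor-beta (TGF-beta) and their close regulators were followed in primary mouse hepatocytes depleted of retinol saturase (RetSat), a liver oxidoreductase. The group was chosen by function and comprised 10 genes: the activin subunit genes Inhba, Inhbb, Inhbc and Inhbe, the activin antagonist Fst, the ligands Tgfb1, Tgfb2 and Gdf15, and the inhibitory Smad genes Smad6 and Smad7. Of these, 9 were read by a probe set that names 1 gene symbol, out of 19938 genes in all, each by a single probe set, and Gdf15 was not analysed here. Values are normalized log2 intensities from Affymetrix Mouse Gene 1.0 ST arrays, so that a difference of 1 is a 2-fold change in signal, and the log2 ratio or log2 fold change is the siRetSat mean minus the siControl mean. Levels of different genes cannot be set against each other on this scale.

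There were 3 arrays of hepatocytes transfected with siRNA against RetSat (siRetSat) and 3 arrays of hepatocytes transfected with control siRNA (siControl), each from an independent transfection. By the series' design text the cells came from 1 male wild-type C57BL/6J mouse aged 10 weeks, whereas the study's methods give a younger range and another siRNA supplier. In both groups cells were isolated by collagenase and Percoll, plated on collagen in medium with 25 mM glucose and 10% serum, transfected overnight with 1 nmol of siRNA and Lipofectamine in unsupplemented medium, and lysed 48 h after return to serum. With a single donor mouse, the spread behind each p-value is that between transfections, not between animals. No second siRNA against RetSat was among the arrays analysed here, so effects of this siRNA and effects of RetSat loss cannot be told apart.

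Activins are dimers of inhibin beta chains that signal through type II and type I receptor kinases to Smad2 and Smad3, as TGF-beta does through its own receptors, whereas bone morphogenetic proteins (BMPs) signal mainly to Smad1, Smad5 and Smad9. In liver, activin A and TGF-beta restrain hepatocyte growth, and the beta C and beta E chains are made largely by hepatocytes. Follistatin binds activins outside the cell, and Smad6 and Smad7 damp the signal inside it.

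The targeted transcript was strongly reduced. Retsat had log2 values of 4.62, 4.83 and 4.81 in siRetSat and 6.80, 7.04 and 7.01 in siControl, so that 21.8% of the control signal remained. The hepatocyte markers albumin (Alb) and Hnf4a were bright in both groups, at means of 13.05 in siRetSat and 12.98 in siControl for Alb, and 8.05 in siRetSat and 7.94 in siControl for Hnf4a. Over the list of 10 hepatocyte markers, however, the median log2 fold change was -0.13. Tat (-0.72, adjusted p = 0.0452) and Fgb (-0.42, adjusted p = 0.0409 from limma) fell, Apob (-0.36, adjusted p = 0.121) and Asgr1 (-0.40, adjusted p = 0.148) did not pass although their groups did not overlap, and the other 6 overlapped. The part of this in the results was not tested. Both arrays numbered 1 lay away from the others of their group along the leading principal component of within-group deviations, which held 61.5% of the variance, and results without both of them are given below.

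Transcripts of 2 activin chains and of the activin antagonist were lower in siRetSat than in siControl, and that of TGF-beta 1 was higher. Inhba, Inhbe and Fst fell and Tgfb1 rose, whereas Inhbb, Inhbc, Tgfb2, Smad6 and Smad7 did not pass the test. Thus 4 of 9 genes passed an adjusted p of 0.05 (limma, Benjamini-Hochberg over all 19938 genes), 3 lower and 1 higher, while of all genes 3.56% passed, 1.66% lower and 1.91% higher. The same 4 passed the looser cutoffs of the study's methods, an unadjusted p below 0.05 together with a minimal fold, which 9.05% of all genes met with limma. These 4 were also those whose groups did not overlap, as was the case for 19.5% of all genes. The median log2 fold change of the 9 genes was -0.09, against 0.00 for all genes. With both arrays numbered 1 left out the same 4 genes passed, whereas without both numbered 2 none did and without both numbered 3 only Inhba did, in fits with 2 arrays per group.

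**Figure D1:**
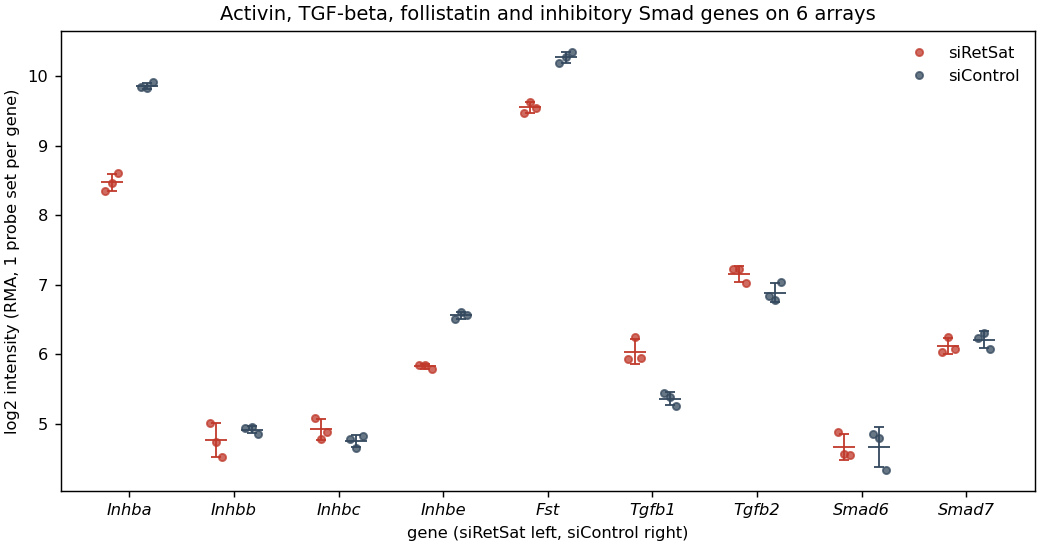
Each dot is 1 array, with its log2 intensity on the y axis for the 9 genes on the x axis, siRetSat in red on the left and siControl in dark blue on the right of each pair. Flat bars give means, and upright lines extend by 1 SD either way (n = 3); the groups lie apart for Inhba, Inhbe, Fst and Tgfb1 and overlap for the other 5 genes, and heights of different genes are not comparable.

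Inhba, which encodes the beta A chain of activin A, showed the largest change of the 9 genes. Its log2 values were 8.35, 8.46 and 8.60 in siRetSat, against 9.84, 9.82 and 9.91 in siControl. Every siRetSat array thus lay more than 1 log2 unit below every siControl array. The mean was 8.47 ± 0.13 in siRetSat and 9.86 ± 0.05 in siControl (SD, n = 3 each), a log2 ratio of -1.39 ± 0.0948 (SE, with adjusted p = 0.000477 in limma), so that 38.2% of the control signal remained. Only 15 of the 19938 genes had a lower log2 fold change than Inhba. The fall passed in all 6 fits with an array omitted, with log2 fold changes between -1.45 and -1.33, but not without both arrays numbered 2 (-1.40, adjusted p = 0.0813 from limma).

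Inhbe, which encodes the beta E chain of activin E, a liver-enriched secreted factor, fell less but with little spread. Its log2 values were 5.84, 5.85 and 5.79 in siRetSat and 6.51, 6.61 and 6.57 in siControl. The siRetSat arrays spanned less than 0.1 log2 units and lay wholly below the siControl arrays. Its log2 ratio was -0.74 ± 0.0815 (SE, with adjusted p = 0.00335 in limma), with 60.0% of the control signal remaining. Inhbe passed in all 6 fits without a single array, but not without both arrays numbered 2 (-0.73, adjusted p = 0.205) or both numbered 3 (-0.72, adjusted p = 0.0824 from limma).

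The other 2 beta chains did not pass the test. Inhbc, which encodes the beta C chain and is the direct neighbour of Inhbe on chromosome 10, had log2 values of 5.09, 4.79 and 4.88 in siRetSat and 4.79, 4.66 and 4.82 in siControl. The groups overlapped, and the log2 ratio was 0.16 (95% confidence interval -0.08 to 0.41, adjusted p = 0.603 from limma). Inhbb, the beta B chain of activin B, had log2 values of 5.02, 4.74 and 4.53 in siRetSat and 4.94, 4.95 and 4.86 in siControl. Its siRetSat arrays reached both above and below the siControl arrays, and the log2 ratio was -0.15 (95% confidence interval -0.45 to 0.14, adjusted p = 0.733 from limma). Both genes lay low on the scale, with means of 4.84 over all arrays, not far above the 40th percentile of all genes at 4.33, under which genes are called dim here.

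The difference between the neighbours Inhbe and Inhbc was examined within arrays, a comparison chosen after their values were seen. The log2 value of Inhbe minus that of Inhbc ranged from 0.75 to 1.06 in siRetSat and from 1.72 to 1.95 in siControl. The change of Inhbe minus that of Inhbc was -0.90, with no overlap between the groups (exact permutation test, two-sided, p = 0.1, the smallest that 3 against 3 arrays allow).

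Promoter sequences are shown for 4 of the genes, to set the fallen genes Inhba and Inhbe beside the neighbour Inhbc, which did not pass, and the raised gene Tgfb1. They come from the RefSeq table for GRCm38.p6, which held 7 of the 9 genes, and run 5′ to 3′ on the gene's own strand with 250 bases before and 50 after an annotated start. Capitals mark letter matches, searched on either strand. These are the TATA box (TATAAA) in Inhba, the Smad box (CAGAC) in Inhbe and Inhbc, and the GC box (GGGCGG) in Tgfb1.
Inhba, chr13:16011601-16011900, plus strand: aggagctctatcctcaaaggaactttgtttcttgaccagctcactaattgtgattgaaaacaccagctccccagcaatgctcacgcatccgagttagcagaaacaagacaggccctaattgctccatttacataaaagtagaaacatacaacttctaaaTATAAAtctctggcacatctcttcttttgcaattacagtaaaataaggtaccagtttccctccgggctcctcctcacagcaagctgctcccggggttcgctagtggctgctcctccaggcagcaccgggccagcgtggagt
Inhbe, chr10:127351799-127352098, minus strand: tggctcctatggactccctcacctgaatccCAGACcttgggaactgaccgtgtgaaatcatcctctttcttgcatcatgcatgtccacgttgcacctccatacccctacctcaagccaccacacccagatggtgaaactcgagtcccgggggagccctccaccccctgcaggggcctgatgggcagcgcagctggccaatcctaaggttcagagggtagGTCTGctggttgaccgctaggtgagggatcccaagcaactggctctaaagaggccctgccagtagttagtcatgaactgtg
Inhbc, chr10:127370499-127370798, minus strand: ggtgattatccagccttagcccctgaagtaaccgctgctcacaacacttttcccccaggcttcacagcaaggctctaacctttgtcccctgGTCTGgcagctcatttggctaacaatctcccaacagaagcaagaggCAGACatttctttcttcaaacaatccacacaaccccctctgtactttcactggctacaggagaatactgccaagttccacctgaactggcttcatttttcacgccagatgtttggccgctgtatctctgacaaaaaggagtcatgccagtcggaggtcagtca
Tgfb1, chr7:25686752-25687051, plus strand: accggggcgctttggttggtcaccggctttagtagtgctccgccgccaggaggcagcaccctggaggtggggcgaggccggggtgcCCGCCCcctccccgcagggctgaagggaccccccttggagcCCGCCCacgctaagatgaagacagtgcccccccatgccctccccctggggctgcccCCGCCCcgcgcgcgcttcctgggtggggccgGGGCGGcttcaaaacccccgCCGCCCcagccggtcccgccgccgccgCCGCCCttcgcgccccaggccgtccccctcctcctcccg

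The windows of the 4 genes differ in composition. G and C made up 47.7% of the Inhba window, 57.3% for Inhbe, 49.7% for Inhbc and 77.0% for Tgfb1. The TATAAA match of Inhba lay at positions -91 to -86, counted with the annotated start as 1. Such a match, on either strand and at any position, was present in 13.6% of 32851 windows. Inhbe and Inhbc each held 2 Smad boxes, at -220 to -216 and -31 to -27 in Inhbe and at -159 to -155 and -113 to -109 in Inhbc. A Smad box was found in 49.6% of all windows. Tgfb1 held 6 GC boxes, a motif found in 35.7% of all windows. Neither the AP-1 site (TGACTCA or TGAGTCA), the cAMP response element (TGACGTCA), the E box (CACGTG), the core of the interferon-stimulated response element (GAAA repeated after a gap of 2 bases) nor the CArG box matched in these 4 windows on either strand. These motifs were present in 5.2%, 1.79%, 7.15%, 3.44% and 1.63% of all windows, in that order.

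Fst encodes follistatin, the secreted protein that binds and neutralises activins. Its log2 values were 9.47, 9.63 and 9.54 in siRetSat, against 10.19, 10.27 and 10.34 in siControl, with no overlap. The mean was 9.55 ± 0.08 in siRetSat and 10.27 ± 0.08 in siControl (SD, n = 3 each), a log2 ratio of -0.72 ± 0.0896 (SE, with adjusted p = 0.00518 in limma), with 60.7% of the control signal remaining. Fst passed in all 6 fits without a single array, but not without both arrays numbered 2 (-0.76, adjusted p = 0.206) or both numbered 3 (-0.68, adjusted p = 0.112 from limma). Inhba and its antagonist therefore both fell, and Inhba fell further. The log2 value of Inhba minus that of Fst ranged from -1.17 to -0.94 in siRetSat and from -0.45 to -0.35 in siControl, a difference in change of -0.67 (exact permutation test, two-sided, p = 0.1, the smallest possible here, chosen after the values were seen).

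Tgfb1, which encodes the major TGF-beta isoform, was the 1 gene of the group that rose. Its log2 values were 5.93, 6.25 and 5.94 in siRetSat and 5.44, 5.39 and 5.26 in siControl. All siRetSat arrays lay above all siControl arrays, and the array siRetSat 2 was the highest. This array was also the highest for the fibroblast collagen genes Col1a1 and Col1a2. Among the siRetSat arrays it was also the highest for the stellate cell and fibroblast markers Col3a1, Pdgfra, Pdgfrb, Cygb and Hhip. It was the lowest of them for Dcn, Lrat and Ngfr, and lay between the others for the remaining markers of that list. The log2 ratio was 0.68 ± 0.113 (SE, with adjusted p = 0.0188 in limma), a 1.60-fold rise. The rise was not past the threshold without siRetSat 2 (0.57, adjusted p = 0.0733), without siControl 2 (0.69, adjusted p = 0.0956) or without siControl 3 (0.63, adjusted p = 0.0764 from limma). Macrophages also make TGF-beta 1, and of 14 Kupffer cell and macrophage markers 1 rose and none fell, while of all genes 3.56% passed. The summed linear intensity of these markers ranged from 3358 to 3592 in siRetSat and from 2497 to 2780 in siControl. Most of it came from Cd68, with a log2 ratio of 0.40 (adjusted p = 0.0563 from limma), and from Cd14, which rose by 0.59 (adjusted p = 0.0208) but did not pass without siRetSat 2, siRetSat 3, siControl 1 or siControl 2. Of the 14, 10 were dim, among them Adgre1 at means of 3.25 in siRetSat and 3.16 in siControl, Timd4 at 3.60 in siRetSat and 3.65 in siControl, and Vsig4 at 2.96 in siRetSat and 3.02 in siControl. The part of such cells in the rise of Tgfb1 was not tested, and in bulk RNA more cells of a type and more RNA per cell cannot be told apart.

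Tgfb2, which encodes a second TGF-beta isoform, had log2 values of 7.22, 7.22 and 7.02 in siRetSat and 6.84, 6.78 and 7.04 in siControl. The array siControl 3 lay above siRetSat 3, so the groups overlapped. The log2 ratio was 0.27 (95% confidence interval 0.02 to 0.51, adjusted p = 0.293 from limma). The value of Tgfb1 minus that of Tgfb2 ranged from -1.29 to -0.97 in siRetSat and from -1.78 to -1.39 in siControl, a difference in change of 0.41 (exact permutation test, two-sided, p = 0.1, the smallest possible).

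The inhibitory Smads did not pass the test. Smad7, which blocks type I receptors and is itself induced by TGF-beta, had log2 values of 6.03, 6.25 and 6.07 in siRetSat and 6.24, 6.31 and 6.08 in siControl. These overlapped, with a log2 ratio of -0.09 (95% confidence interval -0.33 to 0.14, adjusted p = 0.826 from limma). Smad6, which mainly restrains BMP signals, had log2 values of 4.88, 4.57 and 4.55 in siRetSat and 4.86, 4.80 and 4.34 in siControl. The group means of Smad6 were both 4.67, and the 95% confidence interval of the log2 fold change ran from -0.36 to 0.36, so that a change of up to this size in either direction could go unseen.

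**Figure D2:**
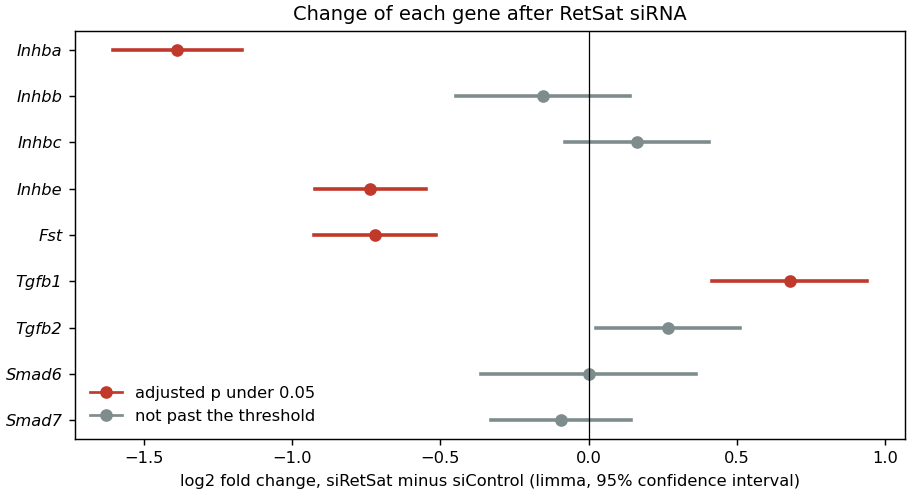
Points are log2 fold changes of siRetSat minus siControl from limma and lines their 95% confidence intervals, for 9 genes from 3 arrays per group. Genes in red passed an adjusted p of 0.05, with Inhba lowest at -1.39 and Tgfb1 highest at 0.68, and grey genes did not, with intervals that include 0 except for Tgfb2.

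Genes whose pattern over the 6 arrays was most like that of each changed gene were named among genes above the 40th percentile of mean level. The measure was Pearson's r over 6 arrays, which fall in the 2 siRNA groups, so that r mostly follows the difference between these groups. For Inhba they were Kmt5b, Cacul1 and Gfpt1 (r of 0.999, 0.998 and 0.997), of which Gfpt1 encodes the first enzyme of the hexosamine pathway. For Inhbe they were Acta1, Cnst and Rtn4rl1 (r of 1.000, 0.998 and 0.997). For Fst they were Zfp655, Thbs1 and Acta2 (r of 0.997, 0.996 and 0.996), and the last of these encodes smooth muscle actin. For Tgfb1 they were Cidec, a lipid droplet protein, Ildr2 and Cryab (r of 0.997, 0.995 and 0.994). Cidec and Ildr2 did not pass the test (log2 ratios of 0.32 and 0.27, adjusted p = 0.114 and 0.149 from limma).

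Most other ligands of the superfamily did not pass the test. Of 23 measured ligands 1 rose, 2 fell and 20 did not pass, while of all genes 3.56% passed. Of the 23, 15 were dim. The list median was 0.03, against 0.00 for all genes. Bmp6, a BMP that drives hepcidin in liver, had log2 values of 6.27, 6.21 and 6.07 in siRetSat and 6.81, 7.08 and 6.81 in siControl, and fell by 0.72 (adjusted p = 0.0124 from limma). Bmp2 fell by 1.11, with log2 values of 3.86, 4.55 and 4.06 in siRetSat and 5.04, 5.55 and 5.20 in siControl (adjusted p = 0.0213). The siRetSat mean of Bmp2, 4.16, lay under the 40th percentile of all genes, which leaves the extent of its decline imprecise. Bmp4 rose by 0.63, with log2 values of 6.84, 6.96 and 6.98 in siRetSat and 6.12, 6.32 and 6.46 in siControl (adjusted p = 0.0209). The groups did not overlap for these 3 genes, so that 2 BMP ligands fell while Bmp4 rose. Bmp6 did not pass without siRetSat 2 or siControl 2, Bmp4 without siRetSat 2, siRetSat 3 or siControl 2, and Bmp2 without siRetSat 3, siControl 2 or siControl 3. By the methods' t-test 0 of the 23 ligands passed after adjustment. Endothelial cells are a main source of BMP ligands in liver, and of 10 endothelial markers none rose or fell (limma), with 1 higher at an unadjusted p under 0.05 and 0 by the methods' test after adjustment. Their summed linear intensity ranged from 322 to 367 in siRetSat and from 292 to 335 in siControl, and their part in the change of the BMP genes was not tested.

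Among 17 receptors and co-receptors 1 rose and 16 did not pass, while of all genes 3.56% passed. Tgfbr2, the type II receptor that binds TGF-beta, rose by 0.44 with log2 values of 7.18, 7.34 and 7.39 in siRetSat and 6.90, 6.77 and 6.92 in siControl (adjusted p = 0.0474 from limma). It lay close to the threshold and passed in only 1 of the 6 fits without a single array, the one without siRetSat 1. By the methods' t-test it did not pass (adjusted p = 0.125). Its partner Tgfbr1 had a log2 ratio of 0.32 (adjusted p = 0.0946), with no overlap between the groups. Acvr1, a type I receptor for BMPs and activins, had one of -0.36 (adjusted p = 0.0652). Eng and Bmpr1a of the same list had log2 ratios of -0.38 and -0.32 (adjusted p = 0.104 and 0.238 from limma). For Acvr1, Eng and Bmpr1a all siRetSat arrays lay below all siControl arrays. At an unadjusted p under 0.05 (limma), 2 genes of the list were higher and 3 lower. The type II activin receptor genes Acvr2a and Acvr2b had log2 ratios of 0.10 (95% confidence interval -0.11 to 0.31) and 0.04 (-0.25 to 0.33), and the type I activin receptor gene Acvr1b one of -0.13 (-0.34 to 0.09). The median over the receptor list was 0.03.

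Genes that hold back or release the ligands outside the cell held 1 that rose and 1 that fell among 24 measured. Their median was 0.03, and of all genes 3.56% passed. Thbs1, which encodes thrombospondin-1, an activator of latent TGF-beta, fell by 0.94 with log2 values of 9.50, 9.63 and 9.53 in siRetSat and 10.42, 10.53 and 10.52 in siControl (adjusted p = 0.00149 from limma). It passed in all 6 fits without a single array, but not without both arrays numbered 2 (-0.955, adjusted p = 0.115 from limma). Itgav, which encodes the alpha V chain of integrins that release latent TGF-beta, rose by 0.51 with log2 values of 8.71, 8.97 and 8.83 in siRetSat and 8.37, 8.29 and 8.31 in siControl (adjusted p = 0.0265). Of the 6 fits without a single array, Itgav passed only in the one without siRetSat 1, and it did not pass by the methods' t-test (adjusted p = 0.0982). Furin, a protease that cleaves TGF-beta and activin precursors, had a log2 ratio of -0.36 (adjusted p = 0.0933). For Thbs1 and Itgav the groups did not overlap.

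None of 20 signalling Smads and their partners rose or fell (limma), while of all genes 3.56% passed. A list this short could hold none at that share. At an unadjusted p under 0.05, 2 were lower and 0 higher, and after adjustment 0 passed by the methods' test. The 2 were Zfyve9, which presents Smads to the TGF-beta receptor, at -0.30 (adjusted p = 0.189), and Smurf2, a ubiquitin ligase for Smads and receptors, at -0.33 (adjusted p = 0.236). The third by p was Tgif1, a Smad corepressor, at -0.17 (adjusted p = 0.404). The list median was 0.00.

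While of all genes 3.56% passed, of 23 measured target genes of TGF-beta and BMP signalling 4 fell, 2 rose and 17 did not pass. The list median was -0.09. Those that fell were Acta2, Timp3, Tagln and Fn1. Acta2, smooth muscle actin, fell by 2.40 with log2 values of 7.52, 7.88 and 7.65 in siRetSat and 9.88, 10.24 and 10.14 in siControl (adjusted p = 0.000205 from limma). Timp3, an inhibitor of matrix proteases, fell by 1.55, Tagln, an actin-binding protein, by 1.46 and Fn1, fibronectin, by 0.93 (adjusted p = 0.00316, 0.00615 and 0.00305 from limma). Those that rose were Hamp and Id3, which are classical BMP targets. Hamp, which encodes the iron hormone hepcidin, rose by 1.28 with log2 values of 7.94, 7.86 and 8.31 in siRetSat and 6.54, 6.72 and 7.0 in siControl (adjusted p = 0.00467). Id3, an inhibitor of helix-loop-helix factors, rose by 0.61 with log2 values of 8.03, 7.90 and 8.02 in siRetSat and 7.41, 7.35 and 7.37 in siControl (adjusted p = 0.00818). For all 6 genes the siRetSat and siControl arrays did not overlap, and 5 of them passed in all 6 fits without a single array, whereas Id3 did not pass without siControl 2. Of these 6, only Acta2 and Id3 passed by the methods' t-test (adjusted p = 0.0266 and 0.0378). Timp3, Tagln and Hamp did not pass with background subtraction. Without both arrays numbered 2 only Acta2 passed (adjusted p = 0.0317 from limma), and without both numbered 3 Tagln, Fn1 and Id3 did not. The collagen genes of the list did not pass, with log2 fold changes of 0.70 for Col1a1 (adjusted p = 0.531), 0.29 for Col1a2 (adjusted p = 0.822) and 0.17 for Col4a1 (adjusted p = 0.647 from limma). Ccn2, another TGF-beta target, had a log2 ratio of -0.35 (adjusted p = 0.0735). Cdkn2b, also of this list, had one of 0.39, with no overlap between the groups (adjusted p = 0.128). Id1 and Id2, relatives of Id3, had log2 ratios of 0.21 and -0.10 (adjusted p = 0.420 and 0.822). Atoh8 of the same list had one of 0.00 (adjusted p = 0.995 from limma). Hepatic stellate cells and fibroblasts also express Acta2 and Tagln. None of 15 markers of these cells rose or fell (limma), with 0 at an unadjusted p under 0.05 and 0 by the methods' test, and 6 of the 15 were dim, Lrat and Des among them. Their summed linear intensity was 446, 591 and 358 in siRetSat and 470, 403 and 350 in siControl. The array siRetSat 2, which was also the highest for Tgfb1, stood above all others on Col1a1, Col1a2, Col3a1 and Pdgfrb. On Pdgfra, Cygb and Hhip it was the highest of the siRetSat arrays only, and on Dcn, Lrat and Ngfr the lowest of them. Col1a1 had log2 values of 6.11, 7.51 and 5.71 in siRetSat and 6.01, 5.78 and 5.43 in siControl. Col1a2 had log2 values of 5.90, 6.73 and 5.32 in siRetSat and 5.93, 5.70 and 5.46 in siControl. The part of such cells in the results was not tested.

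**Figure D3:**
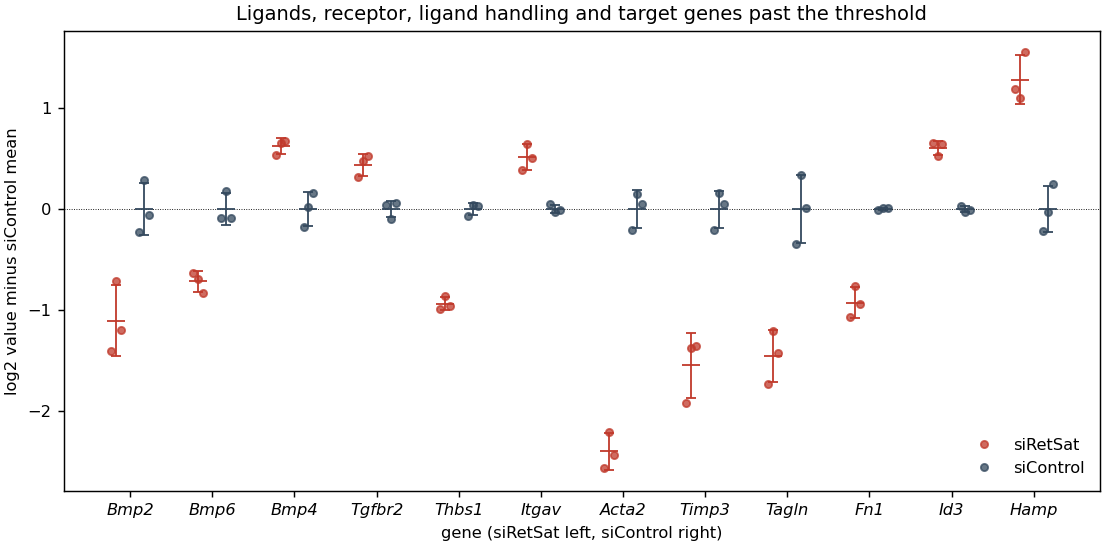
Dots are single arrays, plotted as log2 distance from the gene's mean in siControl, for 12 ligand, receptor, ligand-handling and target genes past the adjusted threshold, siRetSat in red on the left and siControl in dark blue on the right. Flat bars give means, and upright lines extend by 1 SD either way (n = 3), with Acta2 lowest at -2.40 and Hamp highest at 1.28.

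Gdf15 itself is a stress-induced hormone, and genes of the ATF4 and CHOP stress pathway, which induces it, were counted beside the group. Of 16 measured 3 fell, none rose and 13 did not pass, with a median of -0.27, while of all genes 3.56% passed. At an unadjusted p under 0.05 (limma), 9 of the 16 were lower and 0 higher. Asns, which makes asparagine, fell by 0.46, Mthfd2, a mitochondrial folate enzyme, by 0.49 and Nupr1, a stress-induced chromatin protein, by 0.52 (adjusted p = 0.0210, 0.0209 and 0.0368 from limma). Nupr1 did not pass in any of the 6 fits without a single array, and Asns and Mthfd2 passed in only 1, the one without siRetSat 1.

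**Figure D4:**
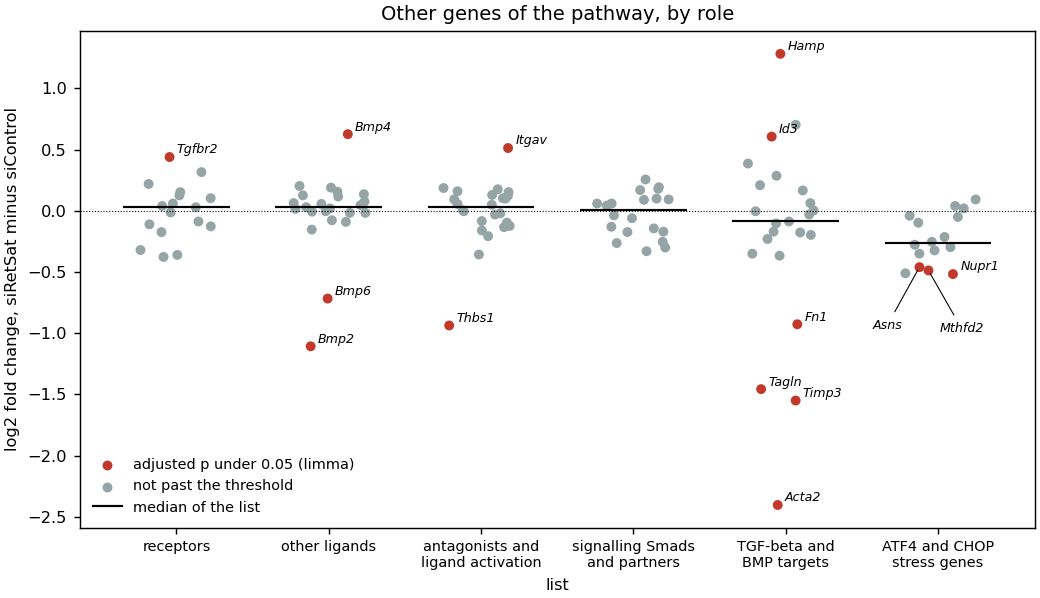
Each point is a gene of 1 of 6 lists on the x axis, with its log2 fold change of siRetSat minus siControl on the y axis (3 arrays in each group). Red points passed an adjusted p of 0.05 and are named, black lines are list medians between -0.27 and 0.03, and the list of signalling Smads and partners holds no red point.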

How the data were processed

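The authors deposited log2 intensities, normalized and rounded to 2 decimals, for 35556 probe sets on 6 arrays. RMA and Partek 6.6 appear in the submitters' processing notes, and no genome build or version of the probe annotation is given in the sources used here. Array medians spanned 4.29 to 4.50. With 3 arrays per group, their number limits precision.

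GEO's platform annotation gave 1 symbol for 21789 probe sets, several for 1621 and none for 12146. Symbols were brought up to date through Entrez identifiers in RefSeq's GRCm38.p6 table (21698 matched, 91 kept), and each of 19938 genes was read from its brightest probe set. Groups were compared by limma 3.58.1 under R 4.3.3, using lmFit and eBayes without covariates and Benjamini-Hochberg adjustment over all genes at a threshold of 0.05. This step was tested on simulated data. Genes whose mean lay under the 40th percentile, 4.33, are called dim. The genes and lists were chosen with earlier results of these data known. Naming followed a rule: the genes of the group, Retsat, each pathway list gene past the threshold (in a list with none, the 3 with the smallest p) and the 3 genes most like each changed gene. Acvr2a, Acvr2b, Acvr1b, Ccn2, Cdkn2b, Id1, Id2, Atoh8, Col4a1, Tgfbr1, Acvr1, Eng, Bmpr1a, Furin and the cell type markers were added after their values were seen. So were the differences between the changes of 2 genes. Alternatives were the methods' t-test, a variance trend, a block for the replicate number, omission of dim genes or of arrays, other normalizations, background subtraction, other handling of probe sets and array weights. Plots were drawn with matplotlib 3.10.9.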

Additional observations from a re-analysis of the deposited data

How the results depend on the processing

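All genes of the group kept their direction where they were past the threshold. The number past it, 4 of 9, lay between 3 and 5 except without both arrays numbered 2 (0) or numbered 3 (1), omissions chosen after seeing the data, which leave 2 arrays per group. Without both arrays numbered 2 the log2 fold change of Inhba was -1.40 (adjusted p = 0.0813 from limma). Tgfb1 was not past the threshold with the methods' t-test or with background subtraction (adjusted p = 0.119 and 0.0808), and Tgfb2 passed with array weights. Over all genes, 380 were higher and 330 lower. These counts became 100 and 96 with the methods' t-test, 188 and 154 with median centring, 1457 and 1448 with array weights, 10 and 5 without both arrays numbered 2, and 71 and 40 without both numbered 3. Background subtraction gave 222 higher and a variance trend 543 lower. Leaving out single arrays gave 119 to 402 higher and 88 to 248 lower. At the study's cutoffs, 1805 genes by limma became 1425 by the methods' t-test. With the replicate block the counts were 736 and 805, and the same 4 genes of the group passed. Deviations of same-numbered arrays correlated at 0.547, 0.0398 and 0.541 for numbers 1, 2 and 3. On the leading component siRetSat 1 and siControl 1 lay at -23.61 and -19.05. There siRetSat 2 and siControl 2 lay at 7.258 and 3.663, and siRetSat 3 and siControl 3 at 16.35 and 15.38. Same-numbered arrays thus lay near each other, but the sample titles do not say that the numbers pair the arrays. The main fit had no block for the numbers, and whether they pair was not settled. The causes of the differences between settings were not tested.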

Other observations

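Markers of other liver cell types were counted beside the group, and of all genes 3.56% passed. The 2 hepatocyte markers that fell, Tat, a tyrosine transaminase, and Fgb, the fibrinogen beta chain, each passed in only 1 of the 6 fits that omit an array, the one without siControl 1, and neither passed by the methods' test after adjustment. The summed linear intensity of the 10 hepatocyte markers ranged from 20959 to 22421 in siRetSat and from 21822 to 24389 in siControl. Of 7 measured cholangiocyte markers 1 rose and none fell. It was Sox9, a transcription factor of duct and progenitor cells, which rose by 0.45 with log2 values of 6.73, 6.88 and 6.80 in siRetSat and 6.28, 6.42 and 6.36 in siControl (adjusted p = 0.0324 from limma). Sox9 passed in only 1 of the 6 fits that omit an array, the one without siRetSat 1, and not by the methods' test (adjusted p = 0.0764). Epcam, an epithelial adhesion protein, had a log2 ratio of 0.36 with no overlap between the groups (adjusted p = 0.129), and the duct keratins Krt19 and Krt7 had log2 ratios of -0.20 and -0.21 (adjusted p = 0.450 and 0.725 from limma).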
